A study of Mus musculus with 6 samples.

Results

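The genes described here are Fst, Inhba, Tgfb1, Acvr1, Tgfbr1, Tgfbr2, Smad3, Smad7 and Tgfbi. They encode follistatin, the subunit of activin A, TGF-beta 1, receptors and Smads of activin and TGF-beta signalling, and a protein named for its induction by TGF-beta. They are 9 of the 18193 genes measured by at least 1 probe set that names a single gene, and 24 of the 34945 such probe sets belong to them. They were chosen by name, on the basis of their levels in earlier results of these same arrays. Differences between the groups are therefore a description of these 9 genes and support nothing by themselves.

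Expression was measured on 6 Affymetrix arrays, 2 in each of 3 groups, with RNA from cultured bone marrow cells of C57BL/6 mice. GM-TNFa-DC are dendritic cells, which present antigens to T cells, grown from the progenitors below with GM-CSF and TNFa together. GM-DC are dendritic cells grown from the same kind of progenitor with GM-CSF and no added TNFa. GM-MPP are multipotent progenitors, from which more than 1 blood lineage can arise, kept in stem cell cytokines and GM-CSF, so that GM-CSF was common to all 3 groups. Doses, culture times and the age of the mice are not given in the labels, and neither is whether the 2 arrays of a group, numbered 1 and 2, stand for separate cultures. P-values therefore measure the spread between these arrays, which may be technical, and 2 arrays per group limit the precision. Values are log2 expression levels. The array medians lay between 4.67 and 4.77 and the lower quartiles between 3.36 and 3.47, so that a level near or below these is close to background, and folds taken from such a level are approximate.

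Activins and TGF-beta are secreted dimers that bind pairs of type II and type I receptor kinases on the cell surface. The type I receptor then phosphorylates Smad2 and Smad3, which enter the nucleus with Smad4 and regulate transcription, while the inhibitory Smads, Smad6 and Smad7, are induced by the pathway and dampen it. Follistatin is a secreted protein that wraps around activin and keeps it from its receptors. In the immune system TGF-beta restrains inflammation and is needed for the Langerhans cells of the skin, and activin A is released by myeloid cells after inflammatory stimulation.

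Marker genes were checked against the labelled cell types. All 9 dendritic cell markers passed as higher in GM-TNFa-DC and in GM-DC, each against GM-MPP, and 6 of 7 progenitor markers passed as lower in both. Markers of stromal and endothelial cells, which also make follistatin and activins in other tissues, averaged 4.60 and 5.07 over 12 genes on the GM-TNFa-DC arrays, 4.75 and 5.01 on the GM-DC arrays and 4.66 and 4.89 on the GM-MPP arrays, near the array median in every group. Of these 12 genes, 4, 7 and 6 were above the array median on both arrays of these groups, so the average hides brighter ones. Acta2 lay between 7.59 and 8.22 on all 6 arrays. Kdr was at 6.09 and 7.43 in GM-TNFa-DC, at 6.29 and 7.50 in GM-DC, and at 5.05 and 4.97 in GM-MPP. None of the 12 passed in any comparison. At an unadjusted p under 0.05, 2 (Kdr and Lepr) were higher in each dendritic cell group against GM-MPP, and 1 (Col1a2) was lower in GM-TNFa-DC. Macrophage markers averaged 8.71 and 9.42 over 7 genes in GM-TNFa-DC, 9.03 and 9.68 in GM-DC and 8.32 and 9.25 in GM-MPP. Against GM-MPP they went both ways, and 1 of the 7, Cd68, passed as higher in both dendritic cell groups. At an unadjusted p under 0.05, 2 were higher and 2 lower in GM-TNFa-DC, and 5 and 2 in GM-DC, with C1qa and C1qb as the lower ones. Neutrophil markers averaged 8.72 and 8.93 over 6 genes in GM-TNFa-DC, 8.84 and 10.69 in GM-DC, and 12.64 and 13.30 in GM-MPP. Of these 6, 3 passed as lower in GM-TNFa-DC and 1 in GM-DC. Megakaryocyte markers averaged 6.68 and 8.43 over 5 genes in GM-TNFa-DC, 6.30 and 8.48 in GM-DC and 7.88 and 8.81 in GM-MPP, and 1 of the 5, Itga2b, passed as lower in both dendritic cell groups. Mast cell and basophil markers averaged 4.67 and 4.69 over 6 genes in GM-TNFa-DC, 4.60 and 4.92 in GM-DC and 6.07 and 6.28 in GM-MPP, with 3 and 2 of 6 lower. T cell markers lay between 4.59 and 4.97 in all groups, and none of the 4 passed. Whether cells of these types contributed to a difference below was not tested, and with RNA from whole cultures fewer cells of a type and less RNA per cell cannot be told apart. Array number was shared mainly between the dendritic cell groups: the number-1 minus number-2 differences correlated across genes, which are not independent replicates, at 0.806 for GM-TNFa-DC and GM-DC, but at 0.0719 for GM-TNFa-DC and GM-MPP and 0.105 for GM-DC and GM-MPP. Spiked-in poly-A controls were brighter on number 1 in all 24 probe sets of each group. Values are therefore also given within each array number. The main fit did not include array number, so the standard errors of GM-TNFa-DC against GM-DC hold this shared spread.

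Follistatin had the widest differences of the 9 genes. Fst was at a log2 level of 9.32 and 8.99 on GM-TNFa-DC 1 and 2, at 4.55 and 7.15 on GM-DC 1 and 2, and at 3.59 and 3.64 on GM-MPP 1 and 2. The 3 groups did not overlap, GM-TNFa-DC being highest and GM-MPP near the lower quartile of its arrays, and the spread within GM-DC (SD 1.84, n = 2) far exceeded that within GM-TNFa-DC (0.23) and GM-MPP (0.04). Fst was 3.31 ± 0.80 (moderated SE) higher on the log2 scale in GM-TNFa-DC than in GM-DC, or 9.91-fold, which was the largest mean difference of the 18193 genes in that direction. The difference was 4.77 on number 1, the largest of all genes there, and 1.85 on number 2, the fifth largest. Against GM-MPP, Fst differed by 5.55 ± 0.80 in GM-TNFa-DC (5.73 on number 1 and 5.36 on number 2) and by 2.24 ± 0.80 in GM-DC (0.96 and 3.51).

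The second probe set for Fst gave 8.55 and 7.59 in GM-TNFa-DC, 4.99 and 6.81 in GM-DC, and 4.92 and 4.33 in GM-MPP. The order of the group means was the same, with smaller differences of 2.17 in GM-TNFa-DC against GM-DC and 1.28 in GM-DC against GM-MPP, and on number 1 the GM-DC array was only 0.07 above the GM-MPP array. With the mean of both probe sets, the difference of 2.74 between GM-TNFa-DC and GM-DC was again the largest of 18193.

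**Figure D1:**
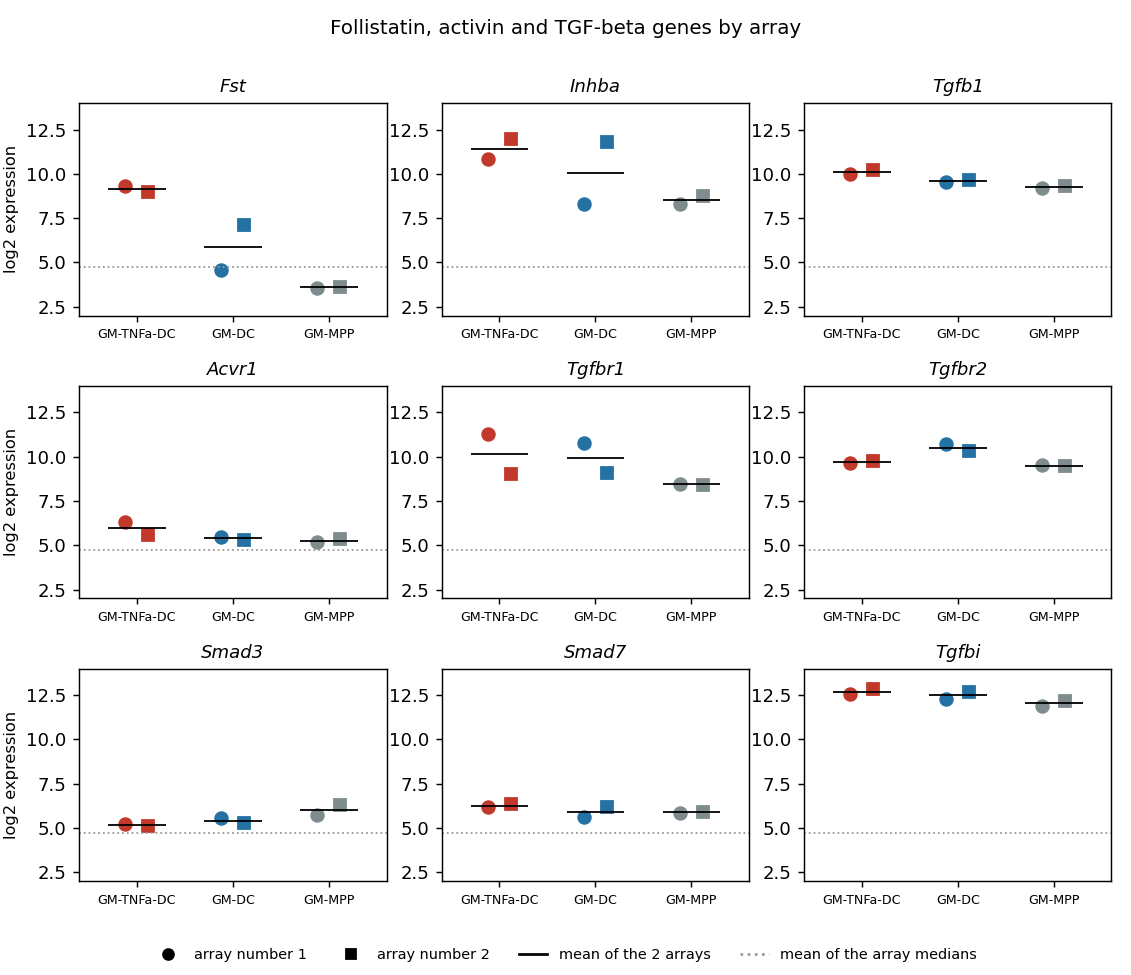
Log2 expression (y axis) of the 9 genes on each array, by group (x axis). Circles are number-1 arrays, squares number-2 arrays, black lines the mean of the 2 arrays and the dotted line the mean of the array medians. Fst lies at 9.32 and 8.99 in GM-TNFa-DC and below the dotted line in GM-MPP, while Inhba and Tgfbr1 part by array number within the dendritic cell groups.

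Inhba, which encodes the subunit of activin A, was high on both GM-TNFa-DC arrays and on GM-DC 2, while GM-DC 1 was at the progenitor level. It was at 10.86 and 11.97 on GM-TNFa-DC 1 and 2, at 8.31 and 11.78 on GM-DC 1 and 2, and at 8.31 and 8.75 on GM-MPP 1 and 2. The GM-DC arrays overlapped both other groups, and both GM-TNFa-DC arrays lay above both GM-MPP arrays. The difference of 1.37 ± 1.11 (SE) between GM-TNFa-DC and GM-DC was 2.56 on number 1 and 0.19 on number 2. The difference of 1.52 ± 1.11 between GM-DC and GM-MPP was 0.01 on number 1 and 3.03 on number 2. GM-TNFa-DC against GM-MPP gave 2.89 ± 1.11, or 7.40-fold, with 2.56 on number 1 and 3.22 on number 2. The sign of both GM-DC differences rested on 1 array: GM-TNFa-DC against GM-DC gave -0.36 without GM-DC 1, and GM-DC against GM-MPP gave -0.22 without GM-DC 2. With the mean of both probe sets the 2.89 was 1.30. The second probe set for Inhba lay between 3.99 and 4.45 on all 6 arrays, below every array median, and showed none of this.

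Tgfb1, which encodes the ligand TGF-beta 1, differed by less, and evenly on both array numbers. It was at 10.01 and 10.21 in GM-TNFa-DC, at 9.57 and 9.67 in GM-DC and at 9.21 and 9.32 in GM-MPP. The 3 groups did not overlap and stood in the same order as for Fst. The difference was 0.50 ± 0.19 (SE) between GM-TNFa-DC and GM-DC, with 0.45 on number 1 and 0.55 on number 2, and 0.35 ± 0.19 between GM-DC and GM-MPP, with 0.36 and 0.34. Its other, dimmer probe set did not keep this order: it was at 6.04 and 5.20 in GM-TNFa-DC, at 5.97 and 5.67 in GM-DC and at 5.30 and 5.27 in GM-MPP.

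The promoters of these 2 ligand genes are shown because Inhba and Tgfb1 differed so unlike each other. They were taken from RefSeq (build GRCm38.p6), run from 250 bases before to 50 bases after the listed start site and are written 5′ to 3′ on the gene's strand. Entries were found for 7 of the 9 genes. The Tgfb1 start site is that of the annotated gene (chr7:25687002). The Inhba start site lies inside the annotated gene, which begins at chr13:16004256. Capitals mark a match on either strand to any of these letters: TATAAA (the TATA box), CAGACA (a Smad-binding sequence), GTCTAGAC (the Smad box), TGACGTCA (the cAMP response element) and TGAGTCA or TGACTCA (AP-1 sites).
Inhba promoter, chr13:16011601-16011900, plus strand: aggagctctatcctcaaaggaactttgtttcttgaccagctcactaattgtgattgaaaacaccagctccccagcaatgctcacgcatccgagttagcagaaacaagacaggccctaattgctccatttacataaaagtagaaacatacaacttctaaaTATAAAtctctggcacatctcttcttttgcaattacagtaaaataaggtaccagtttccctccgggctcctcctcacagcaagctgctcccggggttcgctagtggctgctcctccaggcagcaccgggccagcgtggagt
Tgfb1 promoter, chr7:25686752-25687051, plus strand: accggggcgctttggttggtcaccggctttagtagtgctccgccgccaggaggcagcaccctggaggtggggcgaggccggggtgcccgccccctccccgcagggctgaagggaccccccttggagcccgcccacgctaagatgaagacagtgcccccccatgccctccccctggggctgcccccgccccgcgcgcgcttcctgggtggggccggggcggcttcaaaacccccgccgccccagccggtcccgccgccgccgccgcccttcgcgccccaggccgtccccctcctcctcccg
The Inhba window held TATAAA once, beginning at position -91 relative to the start site, as did 13.6% of all 32851 promoters in the table on either strand, and its GC content was 47.7%. The Tgfb1 window held none of the letters and had a GC content of 77.0%. Of all promoters, 21.0% held CAGACA, 5.2% an AP-1 site, 1.79% the cAMP response element and 0.213% the Smad box. Such matches are letters in a window and not sites shown to be bound.

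Among the receptors, Tgfbr1 and Tgfbr2, the type I and type II receptors for TGF-beta, did not go together. Tgfbr1 was at 11.26 and 8.998 on GM-TNFa-DC 1 and 2, at 10.78 and 9.09 on GM-DC 1 and 2, and at 8.48 and 8.42 in GM-MPP. Both dendritic cell groups were above the progenitors, and within each the number-1 array was far brighter than the number-2 array. The difference of 1.48 ± 0.86 (SE) between GM-DC and GM-MPP was 2.30 on number 1 and 0.67 on number 2, and that between GM-TNFa-DC and GM-DC was 0.20 ± 0.86, with 0.48 and -0.09. Both of its other probe sets were dimmer and also highest on the number-1 dendritic cell arrays, with 7.20 and 7.19 on GM-TNFa-DC 1 and 6.89 and 6.79 on GM-DC 1.

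Tgfbr2 was highest in GM-DC, and GM-TNFa-DC lay close to GM-MPP. It was at 9.63 and 9.76 in GM-TNFa-DC, at 10.72 and 10.30 in GM-DC and at 9.53 and 9.45 in GM-MPP. The GM-DC arrays lay above both other groups, and the spread within each group was small (SD 0.09, 0.30 and 0.05, n = 2). The difference of GM-TNFa-DC against GM-DC was -0.81 ± 0.22 (SE), with -1.09 on number 1 and -0.54 on number 2, or 0.569-fold. It was 1.03 ± 0.22 higher in GM-DC than in GM-MPP, with 1.20 and 0.85, while GM-TNFa-DC and GM-MPP differed by 0.21 ± 0.22. A second probe set had the same order, with 6.86 and 6.89 in GM-TNFa-DC, 7.42 and 7.15 in GM-DC, and 6.50 and 6.78 in GM-MPP, and the remaining one lay between 2.35 and 2.6 on all 6 arrays, at background.

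Acvr1 encodes a type I receptor of activins and bone morphogenetic proteins. It was at 6.33 and 5.59 in GM-TNFa-DC, at 5.48 and 5.31 in GM-DC, and at 5.18 and 5.33 in GM-MPP. GM-TNFa-DC was highest without overlap, by 0.57 ± 0.28 (SE) over GM-DC, while GM-DC and GM-MPP overlapped. A second probe set showed a wider spread, with 7.23 and 5.04 in GM-TNFa-DC, 5.99 and 4.51 in GM-DC, and 4.44 and 3.53 in GM-MPP, each number-1 array being above its number-2 array. The remaining one lay between 4.33 and 4.84 throughout, so the 3 probe sets of Acvr1 do not give a single size for the difference.

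**Figure D2:**
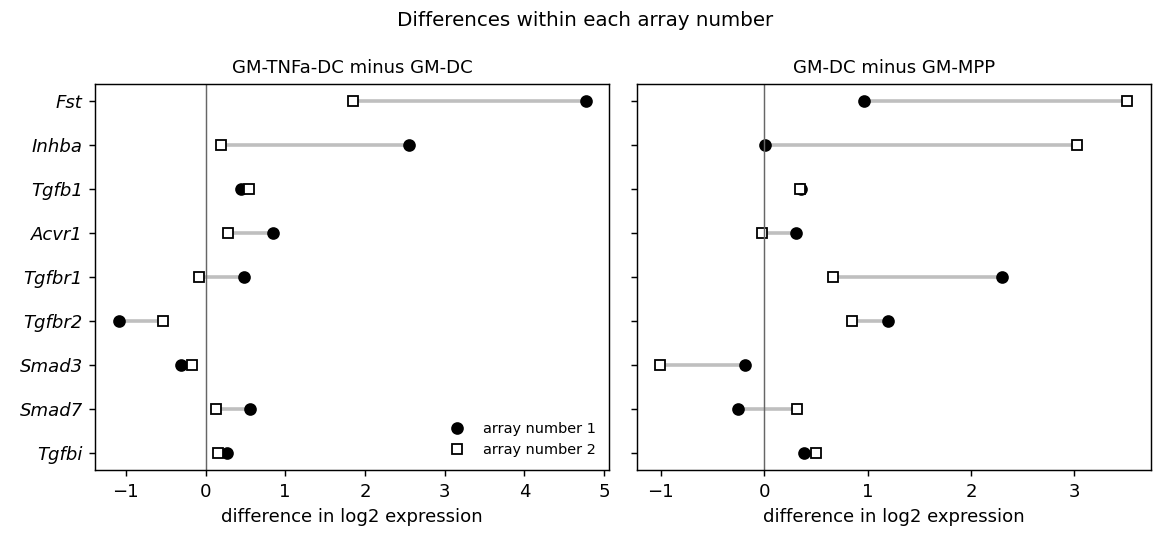
Difference in log2 expression (x axis) of each of the 9 genes (y axis) within array number 1 (filled circles) and number 2 (open squares), for GM-TNFa-DC minus GM-DC on the left and GM-DC minus GM-MPP on the right, where the x scales differ. Fst, Inhba, Tgfb1, Tgfbr2, Smad3 and Tgfbi have the same sign on both numbers in both panels. The Inhba difference lies mainly on number 1 on the left (2.56 against 0.19) and on number 2 on the right (0.01 against 3.03).

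Of the Smads, Smad3 was lower in dendritic cells, and Smad7 was higher in GM-TNFa-DC than in GM-MPP while GM-DC overlapped both. Smad3, which carries the signal of both activins and TGF-beta to the nucleus, was at 5.25 and 5.10 in GM-TNFa-DC, at 5.55 and 5.28 in GM-DC, and at 5.74 and 6.28 in GM-MPP. It was the gene of the 9 that was lower in dendritic cells, with -0.83 ± 0.24 (SE) in GM-TNFa-DC against GM-MPP and -0.59 ± 0.24 in GM-DC against GM-MPP, and the 3 groups did not overlap. The size was not settled: the GM-DC difference was -0.18 on number 1 and -1.01 on number 2 and -0.32 without GM-MPP 2, and the mean of the probe sets gave -0.26 in GM-TNFa-DC and -0.31 in GM-DC. Its 2 other probe sets, between 3.69 and 4.58, lay below every array median. The difference between GM-TNFa-DC and GM-DC was -0.24 ± 0.24 and turned to 0.05 with the mean of its probe sets.

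Smad7, the inhibitory Smad, was at 6.17 and 6.35 in GM-TNFa-DC, at 5.61 and 6.21 in GM-DC, and at 5.86 and 5.90 in GM-MPP. GM-TNFa-DC was above GM-MPP by 0.38 ± 0.25 (SE) and above GM-DC by 0.35 ± 0.25. Its other probe set lay between 3.01 and 3.55, below every array median.

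Tgfbi encodes an extracellular matrix protein named for its induction by TGF-beta. It was bright in all cells, at 12.54 and 12.86 in GM-TNFa-DC, at 12.28 and 12.70 in GM-DC, and at 11.90 and 12.20 in GM-MPP. Both dendritic cell groups were above the progenitors, by 0.65 ± 0.23 (SE) and 0.44 ± 0.23, and they overlapped each other. The 3 other probe sets lay between 10.70 and 12.26, each with its lowest array in GM-MPP and its highest in GM-TNFa-DC. These probe sets are among the brightest on the arrays, where differences can be compressed.

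Across the 9 genes the median log2 difference was 0.35 in GM-TNFa-DC against GM-DC, against 0.01 over all genes tested, 0.44 in GM-DC against GM-MPP, against 0.02, and 0.71 in GM-TNFa-DC against GM-MPP, against 0.05. In GM-TNFa-DC against GM-DC, limma with Benjamini-Hochberg adjustment over the 18193 genes called none of the 9 and none of all genes (0% higher and 0% lower), where an unadjusted p under 0.05 was reached by 3 of the 9 (Fst and Tgfb1 higher, Tgfbr2 lower) and by 270 genes higher and 140 lower in all. In GM-DC against GM-MPP none of the 9 was called, where 1.87% of all genes were called higher and 2.63% lower, and 2 (Fst and Tgfbr2, both higher) reached an unadjusted p under 0.05, as did 1648 genes higher and 2271 lower in all. There Fst passed without GM-DC 1, where its difference was 3.53, and Tgfbr2 passed without dim genes and with no intensity trend. In GM-TNFa-DC against GM-MPP only Fst was called, as higher, where 2.77% of all genes were called higher and 4.26% lower. The call for Fst was kept in 11 of 15 alternative settings, and was lost without either GM-MPP array or either GM-TNFa-DC array, where the difference itself stayed between 5.38 and 5.71. In this comparison Inhba passed in 4 of the 15 alternatives (without either GM-DC array, and in only the 4 arrays compared, with and without the array number as a block), Tgfb1 in 3 (without dim genes, with no intensity trend, and with the block) and Tgfbi in 1 (with the block).

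Counted by arrays that did not overlap, 3 of the 9 genes were higher (Fst, Acvr1 and Tgfb1) and 2 lower (Tgfbr2 and Smad3) in GM-TNFa-DC against GM-DC, against 14.9% and 10.6% of all genes. In GM-DC against GM-MPP, 5 were higher (Fst, Tgfb1, Tgfbr1, Tgfbr2 and Tgfbi) and Smad3 was lower, against 28.3% and 27.0% of all genes. In GM-TNFa-DC against GM-MPP, 8 were higher and Smad3 was lower, against 31.6% and 26.1% of all genes. The genes were selected on these same comparisons, so nothing is read from these counts. The comparisons also share groups, so each gene's differences are not independent of each other.

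Other genes of the pathway were taken from 6 lists by role, and 76 of 80 entries were measured. In GM-TNFa-DC against GM-DC none passed, as over all genes. An unadjusted p under 0.05 was reached by 1 higher (Cdkn2b) and 1 lower (Id1), against 270 and 140 of all 18193 genes. In GM-DC against GM-MPP, 3 rose and 1 fell, or 3.95% and 1.32% of the 76, against 1.87% and 2.63% of all genes. In GM-TNFa-DC against GM-MPP, 5 rose and 2 fell, or 6.58% and 2.63%, against 2.77% and 4.26%. The median log2 change over the 76 was 0.05, 0.12 and 0.20 in these 3 comparisons, against 0.01, 0.02 and 0.05 over all genes.

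**Figure D3:**
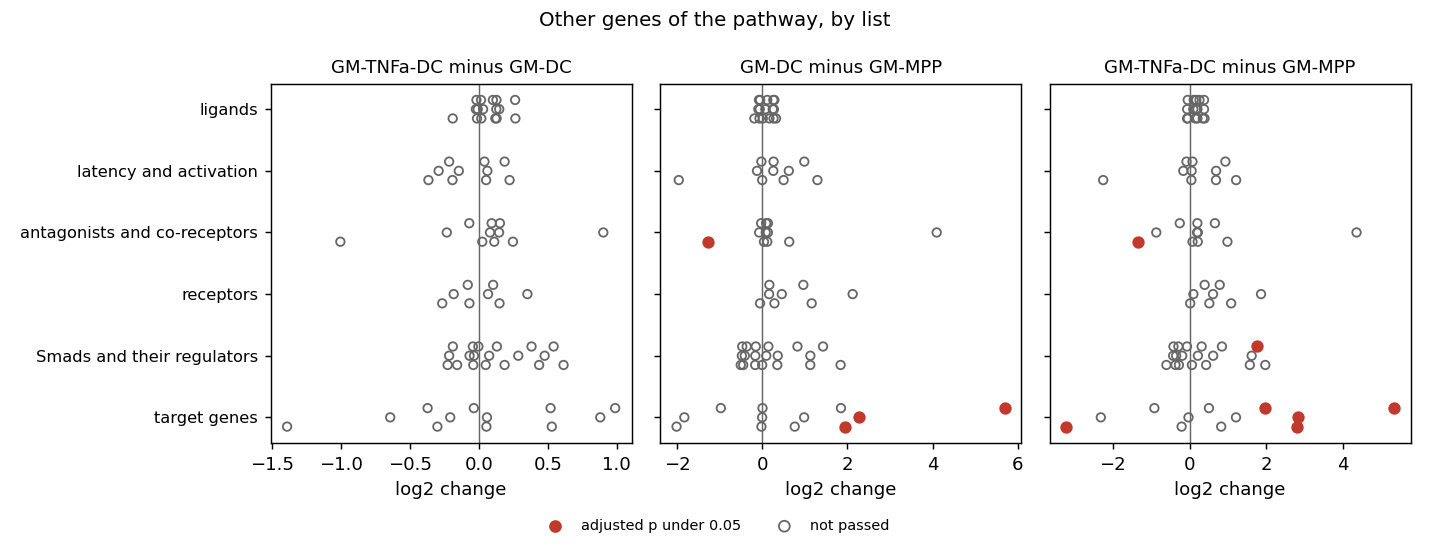
Log2 change (x axis, with a scale of its own in each panel) of the 76 other pathway genes, grouped by list (y axis), in 3 comparisons. Red points passed at an adjusted p under 0.05 and open points did not. The red points lie among the target genes, apart from Bambi among the antagonists and Tgif1 among the Smad regulators, and there are none in GM-TNFa-DC minus GM-DC.

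Among 12 measured target genes of the pathway, 3 rose in GM-DC against GM-MPP, and 4 rose and 1 fell in GM-TNFa-DC against GM-MPP. Over all genes 1.87% rose and 2.63% fell in the first of these comparisons and 2.77% and 4.26% in the second. At an unadjusted p under 0.05, 4 were higher and 2 lower in GM-DC, against 1648 and 2271 of all 18193 genes. In GM-TNFa-DC they were 5 and 2, against 2091 and 2482. The 2 lower ones were Id1 and Ccn2, and Ccn2 lay below the array median on all 6 arrays. Cdkn2b, an inhibitor of the cell cycle that TGF-beta induces in epithelial cells, was at 7.47 and 7.09 in GM-TNFa-DC, at 6.32 and 6.47 in GM-DC, and at 4.17 and 4.76 in GM-MPP. The groups did not overlap, and Cdkn2b rose by 2.82 ± 0.27 (SE) in GM-TNFa-DC (adjusted p = 0.00852) and by 1.93 ± 0.27 in GM-DC (adjusted p = 0.0245), both against GM-MPP. Cdkn1a, a related inhibitor that many other signals also induce, was at 12.24 and 11.29 in GM-TNFa-DC, at 11.38 and 11.10 in GM-DC, and at 8.98 and 8.96 in GM-MPP. It rose by 2.79 ± 0.34 (adjusted p = 0.0151) and 2.26 ± 0.34 (adjusted p = 0.0288) in the same comparisons.

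Axl, a receptor tyrosine kinase that takes part in the uptake of dying cells and is induced by TGF-beta in Langerhans cells, was at 9.95 and 9.33 in GM-TNFa-DC, at 10.51 and 9.51 in GM-DC, and at 4.54 and 4.09 in GM-MPP. It rose by 5.32 ± 0.42 (SE) in GM-TNFa-DC (adjusted p = 0.00539) and by 5.69 ± 0.42 in GM-DC (adjusted p = 0.00519) against GM-MPP. The progenitor levels lay below the array medians, so that the fold is not exact. A second probe set for Axl did not show the change, and with the mean of both the changes were 2.70 and 2.96. Junb, a subunit of the transcription factor AP-1, was at 8.91 and 8.99 in GM-TNFa-DC, at 7.90 and 8.02 in GM-DC, and at 6.39 and 7.57 in GM-MPP. It rose in GM-TNFa-DC against GM-MPP by 1.97 ± 0.40 (adjusted p = 0.0475), and the difference of 0.98 ± 0.40 between GM-DC and GM-MPP did not pass (adjusted p = 0.237).

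Of the target genes that passed, Id1 alone went the other way. It encodes an inhibitor of basic helix-loop-helix transcription factors and is a target of bone morphogenetic protein signalling. It was at 5.35 and 6.35 in GM-TNFa-DC, at 6.97 and 7.50 in GM-DC, and at 9.42 and 8.72 in GM-MPP, without overlap between any of the groups. Its change in GM-TNFa-DC against GM-MPP was -3.22 ± 0.44 (SE, adjusted p = 0.0200), and those in GM-DC against GM-MPP (-1.83 ± 0.44, adjusted p = 0.0819) and in GM-TNFa-DC against GM-DC (-1.39 ± 0.44, adjusted p = 1) did not pass.

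Outside the target genes 2 others passed. Bambi, a decoy receptor without a kinase that dampens TGF-beta signalling, was at 4.40 and 4.41 in GM-TNFa-DC, at 4.32 and 4.62 in GM-DC, and at 5.82 and 5.65 in GM-MPP. It fell to levels below the array medians, with changes of -1.33 ± 0.17 (SE, adjusted p = 0.0166) in GM-TNFa-DC and -1.26 ± 0.17 (adjusted p = 0.0223) in GM-DC, both against GM-MPP. Tgif1, a repressor that binds Smads, was at 8.73 and 9.53 in GM-TNFa-DC, at 8.39 and 8.64 in GM-DC, and at 7.29 and 7.48 in GM-MPP. It rose in GM-TNFa-DC against GM-MPP by 1.74 ± 0.32 (adjusted p = 0.0376), and the 1.13 ± 0.32 between GM-DC and GM-MPP did not pass (adjusted p = 0.118).

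The calls were lost with 1 progenitor array fewer: none of the 4 in GM-DC against GM-MPP and none of the 7 in GM-TNFa-DC against GM-MPP remained without GM-MPP 1 or without GM-MPP 2. The changes stayed about as large in most: without GM-MPP 1 those in GM-DC were 5.92 for Axl, 2.27 for Cdkn1a and -1.18 for Bambi, while Junb in GM-TNFa-DC moved to 1.38. Over all genes the calls in GM-DC against GM-MPP fell to 26 higher and 57 lower without GM-MPP 1, against 340 and 479 with it. Without GM-DC 1 or GM-DC 2, the calls for Bambi, Cdkn1a and Cdkn2b in GM-DC were lost as well. Those in GM-TNFa-DC for Bambi were lost without either GM-TNFa-DC array, for Tgif1 without GM-TNFa-DC 2 or either GM-DC array, for Id1 without GM-TNFa-DC 1, and for Junb without any single array.

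**Figure D4:**
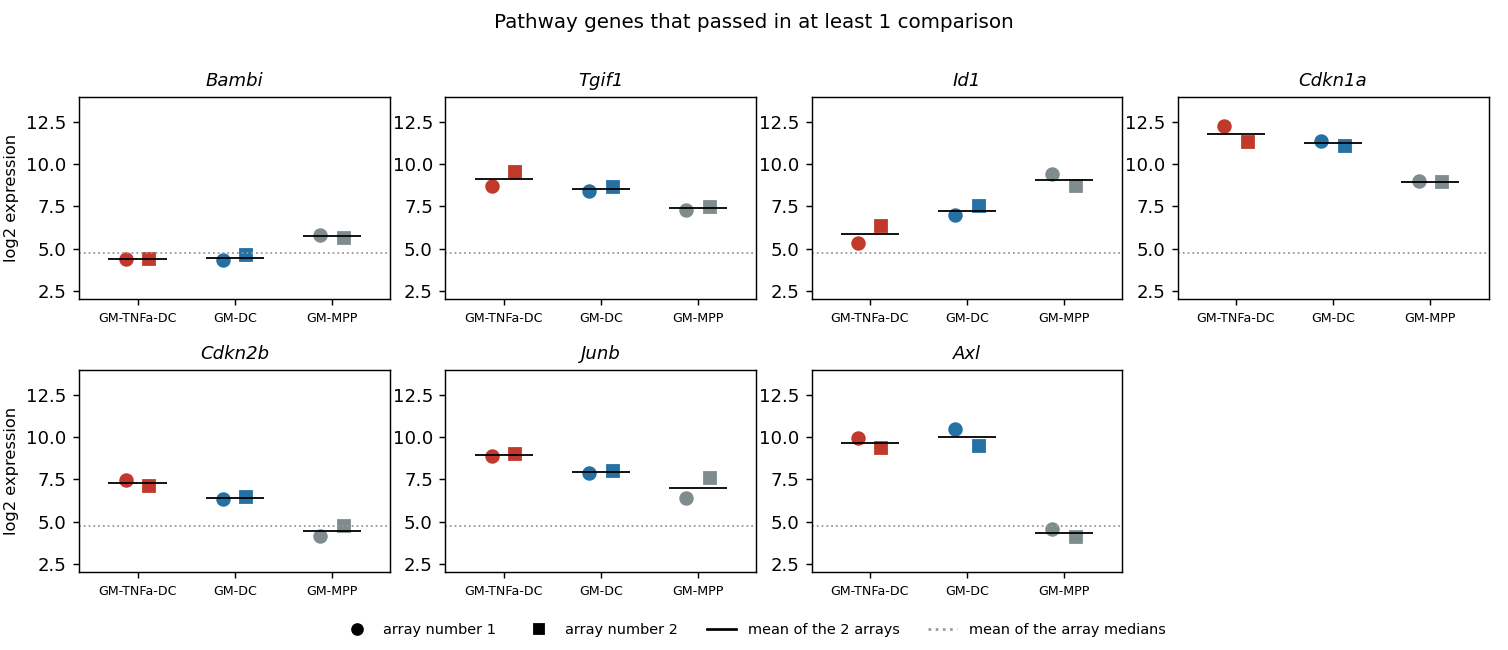
Log2 expression (y axis) on each array of the 7 other pathway genes that passed in at least 1 comparison, by group (x axis). Circles are number-1 arrays, squares number-2 arrays, black lines the mean of the 2 arrays and the dotted line the mean of the array medians. Bambi and Id1 are lower in both dendritic cell groups than in GM-MPP, and the 5 others are higher.

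None of the 16 genes listed as other ligands, 10 latency and activation genes or 8 other receptors passed in any comparison. The listed ligands stayed between -0.19 and 0.39 on the log2 scale in all 3, and 0 reached an unadjusted p under 0.05. Their levels ran from 2.14 (Bmp2 on GM-DC 2) to 5.92 (Gdf11 on GM-TNFa-DC 2), and many lay below the array medians, close to background. A small change at such a level does not show that an expressed ligand was unchanged. In this list the widest changes were those of Bmp1 (0.39 ± 0.16, SE) and Gdf9 (0.38 ± 0.17), both in GM-TNFa-DC against GM-MPP. Gdf9 is a growth factor of the oocyte. Bmp1 is a protease that processes matrix proteins and not itself a ligand, and with the mean of its probe sets its change was 0.21. Of the receptors, Acvrl1, a type I receptor of the endothelium, differed by 1.86 ± 0.44 (adjusted p = 0.0697) in GM-TNFa-DC and by 2.12 ± 0.44 (adjusted p = 0.0628) in GM-DC, both against GM-MPP, and Acvr1b, the main type I receptor for activin, by 1.08 ± 0.30 (adjusted p = 0.0932) and 1.16 ± 0.30 (adjusted p = 0.0951). Acvr1b was at 8.59 and 8.82 in GM-TNFa-DC, at 9.09 and 8.48 in GM-DC, and at 7.42 and 7.83 in GM-MPP. On this probe set both dendritic cell groups lay above the progenitors. Averaged over its 2 probe sets, Acvr1b differed from GM-MPP by only 0.67 in GM-TNFa-DC and 0.58 in GM-DC. Acvrl1, averaged likewise, differed from GM-MPP by 1.07 in GM-TNFa-DC (adjusted p = 0.1431) and 1.24 in GM-DC (adjusted p = 0.1255). The GM-MPP levels of Acvrl1, 4.005 and 4.414, lay below the array medians, so its fold is not exact. At an unadjusted p under 0.05, 3 of the 8 receptors were higher in each of these 2 comparisons, as were 2091 of the 18193 genes in GM-TNFa-DC and 1648 in GM-DC, and none of the 8 in GM-TNFa-DC against GM-DC. Acvrl1 passed in some alternatives, in GM-DC without GM-DC 2 (adjusted p = 0.0367) and in GM-TNFa-DC in 3 of 15 (lowest adjusted p = 0.0257).

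Among the latency and activation genes, Thbs1, a matrix protein that can release TGF-beta from its latent form, parted by array number. It was at 5.78 and 13.05 on GM-TNFa-DC 1 and 2, at 6.62 and 12.79 on GM-DC 1 and 2, and at 11.33 and 12.005 on GM-MPP 1 and 2. Ltbp3, which binds latent TGF-beta to the matrix, did so too, at 5.32 and 7.60 in GM-TNFa-DC, 5.39 and 8.26 in GM-DC, and 5.52 and 5.55 in GM-MPP. Of the megakaryocyte markers, Pf4 was at 8.88 and 12.81 on GM-TNFa-DC 1 and 2, at 6.23 and 12.79 on GM-DC 1 and 2, and at 9.08 and 10.55 on GM-MPP 1 and 2. Ppbp was at 3.50 and 9.60, 3.45 and 9.79, and 8.79 and 10.51 in the same order. Both were, like Thbs1, lower on the number-1 than on the number-2 dendritic cell arrays. The other measured megakaryocyte markers, Vwf, Itga2b and Gp9, went the other way in both dendritic cell groups. Vwf was at 8.89 and 7.78 on GM-TNFa-DC 1 and 2 and at 9.61 and 7.88 on GM-DC 1 and 2, while Itga2b and Gp9 differed by less. Whether cells of this type had a part in the Thbs1 levels was not tested. For Thbs1 and Ltbp3, group means do not describe the arrays, and neither passed (lowest adjusted p = 0.665 for Thbs1 and 0.558 for Ltbp3).

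For each of the 9 genes, the 3 genes most alike over the 6 arrays were looked up among the 5520 genes whose highest and lowest arrays differed by at least 1 on the log2 scale. The measure was Pearson's r over 6 arrays, which share groups and array numbers, and it is given as a description. For Fst they were Mov10 (r = 0.987), Adm (0.977) and Trim3 (0.975), of which Adm spanned 2.56 log2 units over the arrays and Fst 5.73. For Inhba they were Cmklr1 (0.988), Ccl9 (0.987) and Pbxip1 (0.986). Cmklr1, the receptor for the chemoattractant chemerin, was at 6.34 and 7.94 in GM-TNFa-DC, 4.75 and 7.58 in GM-DC, and 4.63 and 4.98 in GM-MPP, and so showed the same low GM-DC 1. For Tgfb1 they were Itga5 (0.991), Gphn (0.979) and Plpp1 (0.974).

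For Acvr1 the most alike were Htr7 (r = 0.994), Glipr2 (0.994) and Pcp4 (0.993). For Tgfbr1 they were Ehhadh (0.998), Ids (0.997) and Tbc1d4 (0.997), all 3 high on the number-1 dendritic cell arrays, and for Tgfbr2 they were Nceh1 (0.979), Asgr2 (0.977) and Fnip2 (0.968), which were highest in GM-DC. For Smad3 they were Prkd2 (0.997), Ms4a6b (0.9898) and Sos2 (0.987). For Smad7 they were Runx3 (0.987), AA467197 (0.965) and Tspo (0.960), and for Tgfbi they were Jag1 (0.998), Atp13a2 (0.995) and Lpcat2 (0.994). Jag1, a ligand of Notch receptors, was at 7.23 and 8.72 in GM-TNFa-DC, at 5.81 and 8.10 in GM-DC and at 3.99 and 5.26 in GM-MPP, a range of 4.73 log2 units against 0.96 for Tgfbi.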

How the data were processed

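Gene expression was measured on 6 Affymetrix arrays, 2 in each of 3 groups, grouped and numbered by the sample titles. Per the submitters' processing notes the deposited log2 values were made with RMA (background correction, quantile normalization, 1 value per probe set), and per the labels in Bioconductor, with no version stated there. The log2 scale was inferred from their range of 1.89 to 14.43. Per the labels' protocols RNA was labelled with a one-cycle kit.

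Of 45101 probe sets, 64 were controls, 34945 named 1 gene, 932 named several and 9160 named none. Symbols were updated through Entrez identifiers to RefSeq (GRCm38.p6), which held those of 34741 of the 34945. Each of 18193 genes was represented by its probe set with the highest mean over the 6 arrays. limma 3.58.1 in R 4.3.3 (lmFit, eBayes with intensity trend, 3 groups in 1 fit, 3 residual degrees of freedom) gave log2 changes, moderated standard errors and Benjamini-Hochberg adjusted p over all genes, with a threshold of 0.05. The fit was tested on simulated data in which each array varied independently. These lacked the spread shared by array number, so the test says nothing about it. The genes and lists were chosen with earlier results of these data known. Named were the 9 genes, every gene of the 6 pathway lists that passed in any comparison or, where none did, the 2 with the largest change, and the 3 genes most correlated with each of the 9. Others named were chosen after their values were seen. Alternatives were quantile normalization a second time, centring on medians, dropping dim genes, averaging the probe sets of a gene, other variance priors, fitting the 4 arrays compared, the array number as a block, and leaving out each array. The block on 4 arrays was added after seeing the data. Python 3.11.15 and matplotlib 3.10.9 prepared tables and plots.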

Additional observations from a re-analysis of the deposited data

How the results depend on the processing

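The GM-TNFa-DC against GM-DC comparison gave 0 calls over all genes and pathway genes in all 15 alternatives. With the array number as a replicate block, GM-TNFa-DC against GM-MPP had 850 genes higher and 1210 lower with 9 pathway genes higher, and GM-DC against GM-MPP had 627 and 849. The numbers were not taken as a pairing of all 3 groups. Same-numbered deviations correlated at 0.105 for GM-DC and GM-MPP and at 0.0719 for GM-TNFa-DC and GM-MPP, but at 0.806 for GM-TNFa-DC and GM-DC. Between those 2 groups the array number was shared, and the main fit left this shared spread in the standard errors. The block in only the 4 arrays compared, chosen after seeing the data, gave 144 higher and 116 lower with 2 and 0 pathway genes in GM-TNFa-DC against GM-MPP, and 151 and 125 with 0 pathway genes lower in GM-DC against GM-MPP. Only the 4 arrays compared, without the block, gave 303 and 446 in GM-TNFa-DC against GM-MPP. Leaving out each array gave, in GM-TNFa-DC against GM-MPP, 37 (without GM-MPP 1) to 303 genes higher, 51 (without GM-MPP 2) to 457 lower, 0 to 4 pathway genes higher and 0 to 2 lower. In GM-DC against GM-MPP it gave 20 (without GM-MPP 2) to 346 higher, 30 (without GM-MPP 2) to 371 lower, 0 to 3 pathway genes higher and 0 to 1 lower. A group left with 1 array is assumed to vary like the others. Some pathway genes changed sign when 1 array was left out. In GM-TNFa-DC against GM-DC the ranges were -3.92 to 3.34 for Thbs1, -1.80 to 1.07 for Ltbp3, -0.22 to 0.081 for Bambi, -0.94 to 0.41 for Acvrl1, -0.38 to 0.23 for Acvr1b and -0.87 to 0.13 for Axl, and the mean of the probe sets gave 0.091 for Acvr1b. In GM-TNFa-DC against GM-MPP they were -5.88 to 1.38 for Thbs1 and -0.21 to 2.07 for Ltbp3, and in GM-DC against GM-MPP -5.04 to 1.12 and -0.14 to 2.73. Of the 9 genes, Inhba, Smad7, Smad3, Tgfbi and Tgfbr1 changed sign in at least 1 alternative: in GM-TNFa-DC against GM-DC, Inhba (-0.36) and Tgfbi (-0.002) without GM-DC 1, Tgfbr1 without GM-DC 2 (-0.65) or GM-TNFa-DC 1 (-0.93) and Smad3 with the mean of its probe sets (0.05), and in GM-DC against GM-MPP, Inhba (-0.22) and Smad7 (-0.27) without GM-DC 2, and Smad7 after median centring (-0.03) or with the mean of its probe sets (-0.03). The cause of these changes was not tested. With 2 arrays a group and dim levels for Fst in GM-MPP, precision is limited.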

Other observations

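Further pathway genes, chosen after their values were seen, parted between cells or arrays without passing. Fstl1, a secreted protein related to follistatin, was at 11.42 and 9.67 in GM-TNFa-DC 1 and 2, at 11.72 and 8.86 in GM-DC 1 and 2, and at 7.50 and 4.89 in GM-MPP 1 and 2. It was higher than in GM-MPP by 4.35 ± 1.28 (SE) in GM-TNFa-DC (adjusted p = 0.109) and by 4.10 ± 1.28 in GM-DC (adjusted p = 0.145), on both array numbers, while GM-TNFa-DC and GM-DC differed by 0.25 ± 1.28. Itgae, an integrin chain of dendritic cells that TGF-beta induces in T cells, was at 6.52 and 4.02 in GM-TNFa-DC, at 7.61 and 4.22 in GM-DC, and at 4.05 and 4.08 in GM-MPP. Fn1, which encodes fibronectin, was at 5.84 and 12.37 in GM-TNFa-DC, at 6.55 and 12.26 in GM-DC, and at 11.09 and 11.74 in GM-MPP. In both, the number-1 and number-2 dendritic cell arrays lay further apart than the group means.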
